A study of Mus musculus with 4 samples.

Results

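Otx2, Zic2, Zic5 and Pou3f1 encode transcription factors of the primed epiblast, the pluripotent tissue that lies ready to form the germ layers. They were taken from the table by gene name, and all 4 were found among 51826 listed genes. The values came from mouse embryonic stem cells on a C57BL/6 background, kept on feeder cells with LIF, the GSK3 inhibitor CHIR99021 and the MEK inhibitor PD0325901, and then passaged onto gelatin to remove the feeders and steered towards mesoderm. For the first 2 days all cells received BMP4 at 10 ng/ml with 1% serum replacement. For the last day they received CHIR99021 at 1 uM with 0.5% DMSO and 15% serum replacement, and RNA was taken on day 3. There were 2 groups, wild type and Stk40-/-, with 2 libraries each. Stk40 encodes a pseudokinase, and the series asks what its deletion does to c-JUN and to mesoderm formation. The labels give neither the number of cell lines behind a genotype nor whether libraries of a group were separate cultures. A difference between genotypes therefore cannot be told apart from one between lines, and the spread that p-values measure is that between these samples, which may be technical.

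As naive stem cells leave the ground state they pass through a formative and then a primed condition before gastrulation. OTX2, a homeobox protein of the bicoid type, and POU3F1, also called OCT6, are known for acting with OCT4 at enhancers that open during this transition. Both are also used later, OTX2 in the forebrain and midbrain and POU3F1 in neural progenitors. The ZIC proteins bind DNA through zinc fingers. ZIC2 and ZIC5 come from a pair of adjacent genes, and both act in primed pluripotent cells and in the dorsal neural tube. In the embryo Otx2 is gradually restricted to the anterior as the primitive streak and the tail end of the body form.

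Values below are TPM, an abundance scaled by transcript length and by the library's total, so levels of different genes may be compared. Fold changes are log2 differences, Stk40-/- minus wild type, computed on log2(TPM + 1) values, which makes them too small for low genes, with the limma standard error (SE). No read depth is kept in TPM, which leaves the precision of each value unknown. The libraries had between 15139 and 15327 genes at 1 TPM or more. The targeted gene was checked first. Stk40 measured 28.9 TPM in wild-type library 1, 39.9 in wild-type library 2, 3.54 in Stk40-/- library 1 and 3.17 in Stk40-/- library 2, which is the order the labels call for. For the labelled mesoderm-like state, the streak gene T ranged from 217 to 1025 TPM. Mesp1, a marker of nascent mesoderm, was at 0.177 TPM in wild-type library 1 and at 0 in the other 3. Of other streak and presomitic genes, Msgn1 measured 90.6 and 7.22 TPM in the wild-type pair and 0.975 and 0 TPM in the Stk40-/- pair. Mixl1 measured 24.7 and 6.77 TPM against 2.06 and 1.71 TPM, and Tbx6 2.33 and 0.468 TPM against 0.358 and 0.661 TPM. Pou5f1, the OCT4 gene, was between 370 and 473 TPM in every library.

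All 4 genes were higher in both Stk40-/- libraries than in both wild-type libraries. The largest ratio of group means was that of Otx2 (4.61), ahead of Zic2 (2.44), Zic5 (2.30) and Pou3f1 (1.85). Their summed level was 63.7 and 80.1 TPM in wild type against 171 and 171 TPM in Stk40-/- cells. No member passed the threshold of an adjusted p under 0.05 (limma, 0 of 4), and neither did any of the 15739 genes tested (0%). At an unadjusted limma p under 0.05, 4 of 4 members were higher, against 6.48% of all tested genes that were higher and 11.0% in either direction (1730 genes). For 27.5% of all tested genes the Stk40-/- pair was wholly above the wild-type pair, and for 16.6% wholly below. Fold changes were above 0 in 58.6% of all tested genes, and in 47.7% after the libraries had been centred on their medians. The median fold change was 1.22 over the 4 members and 0.07 over all tested genes. The members were chosen with earlier results of these data known, so these contrasts with all tested genes may in part reflect that choice. These are bulk libraries, so more cells with a gene's RNA and more of that RNA per cell cannot be told apart.

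**Figure D1:**
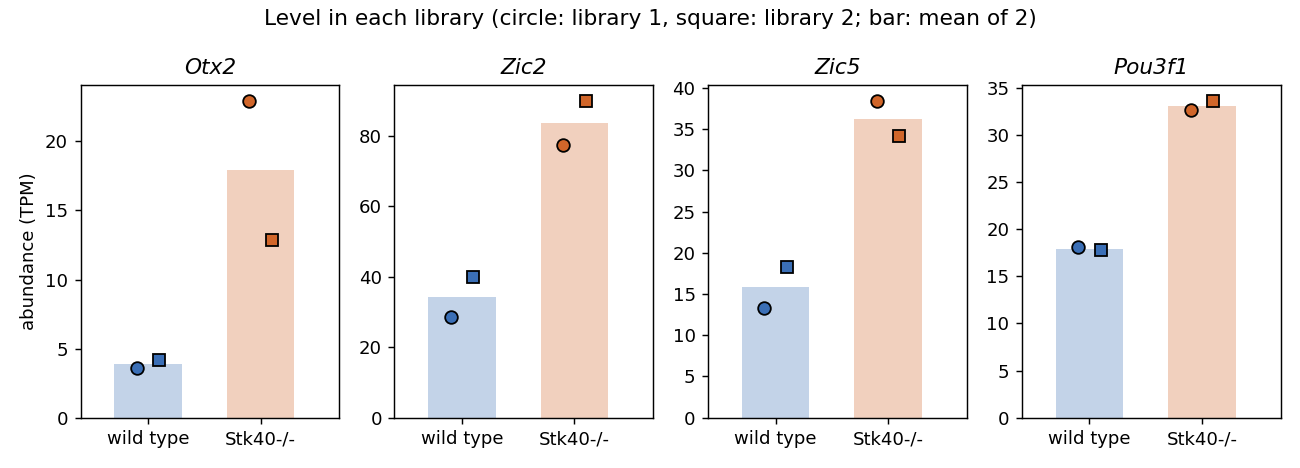
Abundance in TPM (vertical axes, each starting at 0) of Otx2, Zic2, Zic5 and Pou3f1 in the wild-type and Stk40-/- libraries, with a bar at the mean of 2 libraries and a point for each. Both Stk40-/- points lie above both wild-type points in all 4 genes.

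Otx2 (ENSMUSG00000021848.15) lies on the minus strand of chromosome 14, at chr14:48657677-48673819 in GRCm38, with 11 annotated transcripts. It measured 3.58 TPM in wild-type library 1, 4.18 in wild-type library 2, 22.9 in Stk40-/- library 1 and 12.9 in Stk40-/- library 2. The lower Stk40-/- value was 3.07 times the higher wild-type value, so the groups were well apart, but the Stk40-/- libraries also differed from each other. Group means were 3.88 ± 0.429 TPM without the deletion and 17.9 ± 7.13 TPM with it (SD, n = 2). The log2 fold change was 1.90 (SE 0.32, 95% interval 1.04 to 2.77, limma adjusted p = 0.287). Leaving out Stk40-/- library 1 gave 1.51, and leaving out Stk40-/- library 2 gave 2.30. Otx2 thus had the widest interval of the 4 members and the largest estimate, at rank 110 of 15739 among upward fold changes. Among tested genes it stood above 24.4% and 28.0% in the wild-type libraries, and above 61.3% and 48.9% in Stk40-/- libraries 1 and 2.

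RefSeq sequences (GRCm38.p6) of the region before a transcription start were matched for 2 of the 4 members, Otx2 and Zic5. They are shown as stretches before a RefSeq start of genes whose RNA levels lay apart between genotypes. Exonic bases are left out, and the letters run 5′ to 3′ on the gene's strand, with CpG dinucleotides in capitals. The Otx2 stretch is the 250 bases before its outermost RefSeq start (chr14:48667645-48667894, minus strand). It lies inside the Otx2 gene as annotated in GENCODE, which starts at 48673819. Only 1 GENCODE transcript of Otx2 holds the 50 bases that follow this RefSeq start, against 6 for the RefSeq start at 48667508. The Zic5 stretch is 231 bases long (chr14:122465678-122465908, minus strand), because 19 bases nearer the start are exonic in GENCODE.
Otx2: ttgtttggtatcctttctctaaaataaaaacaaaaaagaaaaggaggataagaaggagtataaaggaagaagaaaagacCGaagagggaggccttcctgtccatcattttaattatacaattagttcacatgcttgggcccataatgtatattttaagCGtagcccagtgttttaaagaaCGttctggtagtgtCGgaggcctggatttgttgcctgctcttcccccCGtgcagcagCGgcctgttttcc
Zic5: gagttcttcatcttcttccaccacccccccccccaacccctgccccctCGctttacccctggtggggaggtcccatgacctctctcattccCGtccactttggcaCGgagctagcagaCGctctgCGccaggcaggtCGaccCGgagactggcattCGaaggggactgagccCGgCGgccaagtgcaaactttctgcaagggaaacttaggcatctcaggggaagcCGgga
The stretches differ in base composition. G and C make up 42.0% of the Otx2 stretch, which holds 6 CpG dinucleotides, and 62.3% of the Zic5 stretch, which holds 11. The median over 32817 upstream windows of 250 bases was 52.4% G and C with 6 CpG.

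Short motifs were searched on both strands in the 250 bases before each of 4 RefSeq starts of Otx2 and the start of Zic5. The AP-1 site TGAGTCA, to which JUN dimers bind, was in none of the 5 windows and in 4.46% of all windows. A site in so few windows is most often absent from any 5, and some Otx2 windows overlap. Its absence therefore carries little information. Neither the octamer ATGCAAAT (1.60% of all windows) nor the ZIC core CAGCAGG (8.45%) was in these 5 windows. The TCF/LEF core CTTTGAT (3.21%) and the GC box GGGCGG (32.7%) were also in none of the 5. A match to the bicoid-type homeobox site TAATCC (6.25% of all windows), the kind of site OTX2 binds, was found 211 bases before the Otx2 start at position 48665109, inside an exon of other Otx2 transcripts. A CCAAT box (33.8% of all windows) was found 70 bases before the start at 48667508, also within an exon. Both are shown in windows of 30 bases on the strand of Otx2 with the match, which reads from the opposite strand, in capitals.
Homeobox-type match (chr14:48665303-48665332): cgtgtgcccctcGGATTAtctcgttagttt
CCAAT match (chr14:48667561-48667590): tctctccctgccATTGGttggagagtttgc
These are matches of letters, with no measurement of binding.

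Zic2 (ENSMUSG00000061524.8, chr14:122475435-122479852, plus strand) was the most abundant of the 4 genes in every library. Its levels were 28.7 TPM in wild-type library 1, 39.9 in wild-type library 2, 77.4 in Stk40-/- library 1 and 90.0 in Stk40-/- library 2. The lower Stk40-/- value was 1.94 times the higher wild-type value. Means were 34.3 ± 7.95 TPM and 83.7 ± 8.91 TPM (SD, n = 2), in the order wild type and Stk40-/-, and the log2 fold change was 1.28 (SE 0.20, 95% interval 0.75 to 1.81, limma adjusted p = 0.265). Zic2 rank among tested genes was above 67.6% and 75.6% of them in wild type and above 86.5% and 89.1% in Stk40-/- cells.

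Zic5 (ENSMUSG00000041703.7, chr14:122456795-122465677, minus strand) starts 9.76 kb from Zic2 and is read away from it. It measured 13.3 TPM in wild-type library 1, 18.3 in wild-type library 2, 38.4 in Stk40-/- library 1 and 34.1 in Stk40-/- library 2. The groups did not overlap, and means were 15.8 ± 3.49 TPM without the deletion and 36.3 ± 3.04 TPM with it (SD, n = 2). The log2 fold change was 1.16 (SE 0.19, 95% interval 0.64 to 1.68, limma adjusted p = 0.279). Zic2 and Zic5 also kept a similar proportion: the ratio of Zic2 to Zic5 was 2.15 and 2.18 in wild type and 2.01 and 2.64 in Stk40-/- cells. The Stk40-/- ratios lie on either side of the wild-type ratios. The log2 ratio differed by 0.12 between genotypes (exact permutation test, two-sided, p = 1). With 2 against 2 libraries that test cannot give a p below 0.333, so it sets no limit on a difference. The wild-type libraries were apart in the same direction for both genes, by 0.46 for Zic2 and 0.43 for Zic5 on the log2 scale, with library 2 the higher. Between the Stk40-/- libraries Zic2 was 0.22 higher in library 2 and for Zic5 the difference was -0.17.

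Pou3f1 (ENSMUSG00000090125.3, chr4:124656807-124660655, plus strand) had the closest replicates. Its 18.1 and 17.8 TPM in wild-type libraries 1 and 2 stood against 32.6 and 33.6 TPM in Stk40-/- libraries 1 and 2. Means were 17.9 ± 0.229 TPM and 33.1 ± 0.723 TPM (SD, n = 2) in the same order of groups. The log2 fold change was the smallest of the 4 members, 0.85 (SE 0.11, 95% interval 0.55 to 1.15), yet it ranked highest of them by unadjusted limma p (rank 67 of 15739, adjusted p = 0.265). With 1 library left out it ranged only from 0.83 to 0.87. In order of level, Zic2 was first and Otx2 last in all 4 libraries, while Pou3f1 and Zic5 changed places between the wild-type libraries and did not differ there beyond the replicate spread of Zic5.

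**Figure D2:**
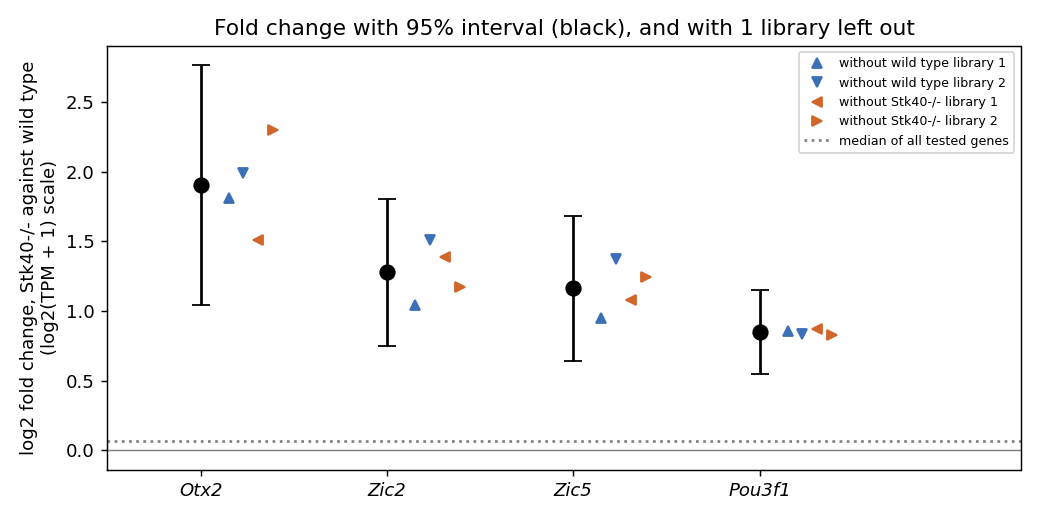
Log2 fold change between genotypes, log2(TPM + 1) scale (vertical axis), for the 4 members, with the 95% interval in black and the estimate without each library as triangles. With 1 library left out the 4 members run from 0.83 (Pou3f1) to 2.30 (Otx2).

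The relatives of these genes were next compared, since paralogs can stand in for one another. Zic1, used in the dorsal neural tube and somites, reached 0.843 TPM in wild-type library 2 and at most 0.0541 TPM in the others, and Zic4 was listed at 0 throughout. Salmon shares reads among similar transcripts, so values of family members with conserved zinc fingers are less certain.

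Otx1 and Crx, the other genes of the Otx group, were below the filter of a mean of 1 TPM. Otx1 measured 0.134 and 0.297 TPM in the wild-type pair and 0.568 and 0.499 TPM in the Stk40-/- pair, and Crx did not exceed 0.343 TPM. Otx2 therefore made up between 86.7% and 97.3% of the group's summed level. Pou3f1 similarly made up between 96.3% and 97.2% of the POU class III family. Its relatives Pou3f2 and Pou3f3, used in neural progenitors, stayed at or under 0.182 TPM. Pou3f4 measured 0.454 and 0.521 TPM in the wild-type pair and 1.04 and 0.772 TPM in the Stk40-/- pair. Among the POU genes of other classes 7 of 11 were tested, with a median fold change of -0.01. Pou6f1 (log2 fold change -0.13), Pou2f3 (1.89 and 2.06 against 1.30 and 1.47 TPM) and Pou2f1 (12.6 and 18.7 against 17.5 and 17.7 TPM) had the smallest unadjusted p, and none was under 0.05. Pou5f1, whose product partners OTX2 and POU3F1, measured 370 and 473 TPM in the wild-type pair and 372 and 465 TPM in the Stk40-/- pair (log2 fold change -0.01, SE 0.17).

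Genes that accompany the members in the primed or formative epiblast were then read from a list of 19 others, of which 17 were tested. No gene of the list passed in limma, 13 fold changes were positive, and the median was 0.33 against 0.07 over all tested genes. That median was 0.16 without wild-type library 1 and 0.22 without Stk40-/- library 1. The Stk40-/- pair was wholly above the wild-type pair in 10 of the 17 and wholly below in 2, against 27.5% and 16.6% of all tested genes. Utf1, which encodes a chromatin-associated factor of pluripotent cells, measured 125 and 148 TPM in the wild-type pair and 229 and 203 TPM in the Stk40-/- pair. Lin28b, an RNA-binding protein gene, was at 28.6 and 26.2 TPM and then at 42.7 and 37.6 TPM. Grhl2, an epithelial transcription factor gene, measured 6.72 and 7.60 TPM and 11.1 and 12.1 TPM. Each of these lay apart by less than a factor of 2 between group means, with limma adjusted p from 0.306 (Utf1) upward. Nodal and Dusp6, a signal of the epiblast and a brake on ERK, were the 2 genes with Stk40-/- libraries below wild type. These 2 were picked after their values were seen.

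**Figure D3:**
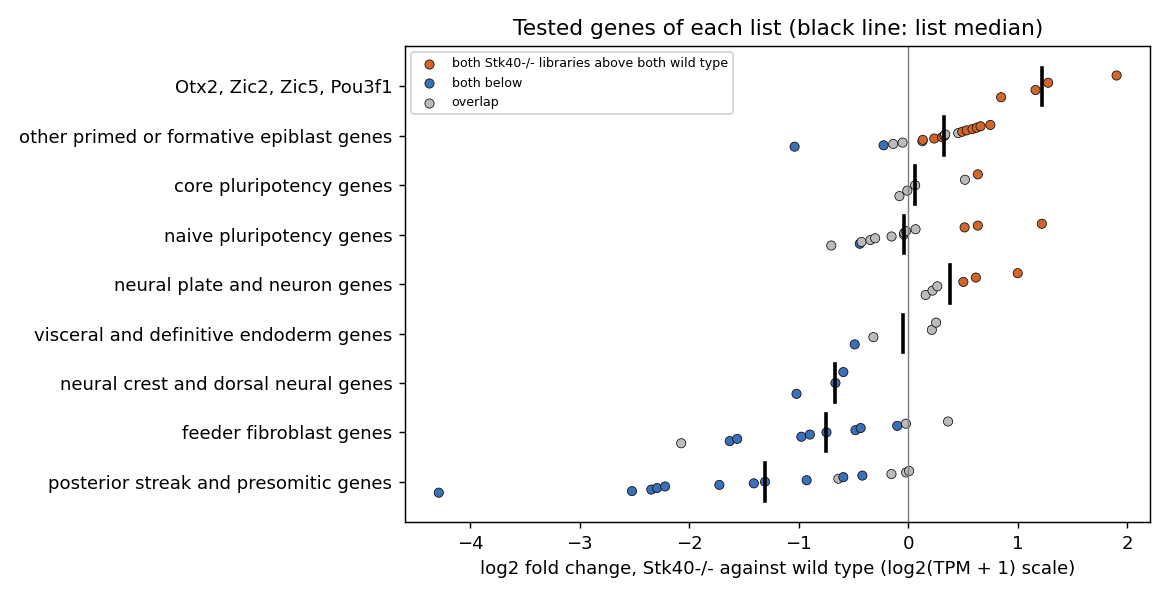
Log2 fold change (horizontal axis, log2(TPM + 1) scale) of the tested genes in each list, 1 point per gene, coloured by whether the Stk40-/- pair was wholly above, wholly below or overlapping the wild-type pair, with the list median as a black line. The 4 members have a median of 1.22, the other primed genes 0.33 and the posterior streak genes -1.31.

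Naive pluripotency genes were mixed: of 13 tested out of 16 listed, 4 fold changes were positive and 9 negative, and 0 passed in limma. Nanog, a core factor that is also on this list, measured 113 and 132 TPM in the wild-type pair and 219 and 166 TPM in the Stk40-/- pair. Fgf4, the ligand that drives exit from the naive state, was at 3.13 and 5.90 TPM and then at 13.4 and 9.78 TPM. Zfp42, known as Rex1 and lost on exit, went the other way in its values, with 18.0 and 17.5 TPM in the wild-type pair and 12.6 and 13.0 TPM in the Stk40-/- pair. Of 5 core pluripotency genes, 1 (Nanog) had groups that did not overlap, with the Stk40-/- pair above, against 27.5% of all tested genes. Sox2 overlapped, at 12.7 and 24.4 TPM against 20.3 and 32.6 TPM, as did Sall4, at 39.6 and 48.2 TPM against 43.6 and 47.9 TPM.

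Otx2, Zic2, Zic5 and Pou3f1 are also neural genes, so markers of neural cells were read beside them. Of 19 neural plate and neuron genes, 12 were below 1 TPM in all 4 libraries, 6 were tested and 0 passed in limma. The early neural plate gene Sox1 measured 0.806 and 0.500 TPM in the wild-type pair and 1.96 and 1.15 TPM in the Stk40-/- pair. Pax6 did not exceed 1.36 TPM in any library, Six3 stayed under 1 TPM, and En1 was listed at 0. Tubb3, a neuronal tubulin gene, was at 2.66 and 3.97 TPM and at 4.84 and 11.5 TPM, and Map2, of the neuronal cytoskeleton, at 9.16 and 8.27 TPM and at 10.5 and 15.5 TPM. The 6 tested fold changes were all positive with a median of 0.38, which was 0.17 without Stk40-/- library 2, 0.08 with every gene above 0 TPM included, and 0.83 and 0.87 with pseudocounts of 0.1 and 0.01. The summed list was 70.6 and 72.5 TPM in the wild-type pair and 74.5 and 108 TPM in the Stk40-/- pair. Nes was the main part of that sum, at 54.3 and 52.0 TPM in the wild-type pair and 52.9 and 73.0 TPM in the Stk40-/- pair. The higher library by that sum, Stk40-/- library 2, was the higher for Zic2 and Pou3f1 and the lower for Otx2 and Zic5. The part of such cells in the members' levels was not tested.

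Other cells that could carry these RNAs were read in the same way. Otx2 is also made in the anterior visceral endoderm, and of 15 endoderm genes 10 were below 1 TPM in all libraries. Ttr and Apoa1 were listed at 0, Sox17 and Cer1 did not exceed 0.239 TPM, and the list summed to 15.2 and 16.2 TPM in the wild-type pair and 10.9 and 13.4 TPM in the Stk40-/- pair. Among the 4 tested, Hhex measured 6.32 and 5.68 TPM in the wild-type pair and 3.58 and 4.42 TPM in the Stk40-/- pair, whereas Foxa2 (from 1.75 to 3.27 TPM) and Amn (from 1.45 to 3.26 TPM) overlapped. Zic genes also mark dorsal neural tissue and neural crest, where Sox10 stayed at or under 0.650 TPM and Pax3 at or under 0.169 TPM. Tfap2a of that list was too low to be tested but lay higher in the Stk40-/- pair. It measured 0.154 and 0.163 TPM in the wild-type pair and 0.741 and 0.328 TPM in the Stk40-/- pair. The 3 tested genes of that list, Ets1, Msx1 and Msx2, were lower in both Stk40-/- libraries, as were 16.6% of all tested genes. The list summed to 26.4 and 18.1 TPM in the wild-type pair and 13.6 and 12.6 TPM in the Stk40-/- pair. Ets1 was the main part of that sum (18.9 and 12.8 against 10.1 and 8.83 TPM). Feeder fibroblast genes summed to 434 and 433 TPM in the wild-type pair and 303 and 311 TPM in the Stk40-/- pair, with Tagln the main part (385 and 359 against 268 and 282 TPM). Whether feeder cells gave that sum was not tested. Of the 15 feeder genes 11 were tested, and 3 were below 1 TPM in all libraries. These were Lum (at most 0.0791 TPM), Postn (at most 0.331 TPM) and Prrx1 (at most 0.694 TPM). Of the 11 fold changes 10 were negative and 1, that of Thy1, was positive, where 58.6% of all tested genes were positive. Thy1 overlapped, at 7.28 and 9.42 TPM in the wild-type pair and 13.1 and 9.17 TPM in the Stk40-/- pair. Twist1 ranged from 4.24 to 7.56 TPM and Col1a2 from 1.33 to 6.87 TPM, both lower in the Stk40-/- pair. Acta2 (14.3 and 11.7 against 4.59 and 2.99 TPM) and Col1a1 (6.98 and 7.29 against 3.96 and 3.74 TPM) lay lower there as well.

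Posterior streak and presomitic genes lay on the opposite side from the 4 members. Of 18 listed, 15 were tested, 14 fold changes were negative and 0 passed in limma. In 11 the Stk40-/- pair was wholly below the wild-type pair, against 16.6% of all tested genes. The caudal homeobox gene Cdx1 measured 28.2 and 27.5 TPM in the wild-type pair and 6.49 and 9.17 TPM in the Stk40-/- pair, and Cdx2 11.1 and 9.03 TPM against 1.46 and 0.904 TPM. Hoxb1, a hindbrain and streak Hox gene, measured 38.2 and 18.8 TPM against 3.62 and 4.09 TPM. The list's median fold change was -1.31, and -0.83 without wild-type library 1. That library had the highest T of the 4 (1025 TPM, against 535, 355 and 217 TPM), and it was also the lowest for Zic2, Zic5 and Otx2. For Pou3f1 it was not the lowest, at 18.1 TPM against 17.8 TPM in wild-type library 2. Of the Stk40-/- libraries, library 1 had the higher T. It was the higher for Otx2 and Zic5 and the lower for Zic2 and Pou3f1. Gbx2, which opposes Otx2 at the boundary of midbrain and hindbrain, measured 17.5 and 23.0 TPM in the wild-type pair and 9.80 and 17.1 TPM in the Stk40-/- pair (log2 fold change -0.59, SE 0.31, limma adjusted p = 0.555). The highest Stk40-/- value of Gbx2 was close to the lowest wild-type value. Without wild-type library 1 the fold changes of the members were 1.81 for Otx2, 1.05 for Zic2, 0.95 for Zic5 and 0.86 for Pou3f1.

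Likeness of profiles was measured as the Euclidean distance between log2(TPM + 1) values over the 4 libraries after each gene's mean was removed, among 10896 other genes averaging 5 TPM or more. Zic2 and Zic5 lay 0.29 apart, and Zic5 was the sixth nearest gene to Zic2 and Zic2 the ninth nearest to Zic5 (ranks 6 and 9). Otx2 was 0.88 or more from each other member. Nearest to Otx2 were Artn (distance 0.33; 1.89 and 1.91 against 10.0 and 7.01 TPM, wild type first), the pseudogene Gm12208 (0.35) and the calcium pump gene Atp2b4 (0.53). Artn encodes a ligand of the GDNF family. Nearest to Zic2 were the polarity gene Pard6a (0.20), Snhg7 (0.205) and Pipox (0.22). Nearest to Zic5 were Fam171b (0.16), the noncoding Gm14260 (0.16) and Cfap126 (0.22). Nearest to Pou3f1 were Pgap1 (0.07), Cdk18 (0.11) and the histone gene Hist1h3h (0.11). With 4 libraries such nearness is a description of these samples.

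The genes beside the members were read to see how far along the chromosome their values extended. Pcca, which starts 58.9 kb beyond Zic2, measured 22.2 and 25.9 TPM in the wild-type pair and 23.8 and 25.6 TPM in the Stk40-/- pair. Clybl, 284 kb from Zic5 on its other side, was at 25.1 and 24.7 TPM and at 34.3 and 28.5 TPM (log2 fold change 0.32, SE 0.14). Tmem260 and Ap5m1, the tested protein-coding neighbours of Otx2, had log2 fold changes of -0.43 and 0.24. Otx2os1, a noncoding gene read from the region of Otx2, was at 0.374 TPM in Stk40-/- library 2 and at 0 in the other 3 libraries. Otx2 and Zic2 share chromosome 14 but start 73.8 Mb apart.

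Pou3f1 lies on chromosome 4, 1.45 Mb from the start of Stk40, the targeted gene. Of the 18 tested protein-coding genes that start between them, 4 had the Stk40-/- pair wholly above, 3 wholly below and 11 overlapping. Over all tested genes the shares were 27.5% above and 16.6% below. The median log2 fold change of the 18 was 0.02, with a range from -0.72 to 0.51. Pou3f1, at 0.85, was above that range. Its nearest tested neighbours were Utp11, 36.8 kb away on the side of Stk40 (61.7 and 48.7 against 63.9 and 58.1 TPM), and Rragc, 739 kb away on the other (52.5 and 51.0 against 37.2 and 46.3 TPM). Lsm10, the last tested gene before Stk40, measured 25.0 and 22.1 TPM in the wild-type pair and 19.5 and 21.2 TPM in the Stk40-/- pair.

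**Figure D4:**
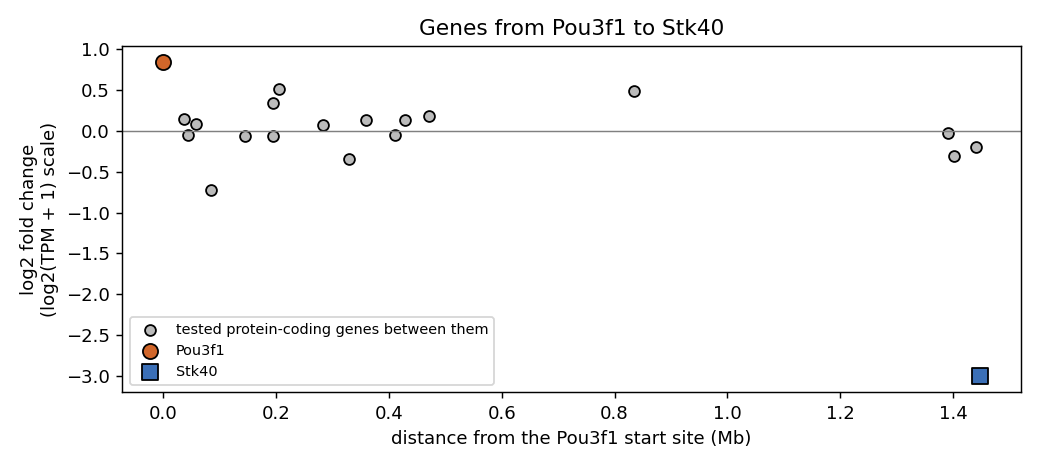
Log2 fold change on the log2(TPM + 1) scale (vertical axis) of Pou3f1, Stk40 and the 18 tested protein-coding genes between them, against the distance of each start site from that of Pou3f1 in Mb. The genes between run from -0.72 to 0.51, with Pou3f1 at 0.85 and Stk40 at -3.01.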

How the data were processed

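Polyadenylated RNA of 4 mouse libraries was read in pairs of 100 or 150 bases, per the labels' protocols, and no source used here ties a length or instrument to a library, so no batch term could be fitted. The authors deposited gene-level TPM, per the file headers. The submitters' processing notes list CASAVA 1.7, Salmon 0.8.2 and the build hg38, which is human, whereas all gene IDs are Ensembl mouse IDs. The authors' annotation was not given in the sources used here. There were 0 unused per-sample columns. TPM keeps no read depth, and a rise in abundant RNAs lowers other values of that library.

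Gene IDs stripped of their version were looked up in GENCODE vM21 (GRCm38) for positions, with 51633 of 51826 found, and upstream sequences were RefSeq's (GRCm38.p6). The 15739 genes averaging 1 TPM or more entered limma 3.58.1 (R 4.3.3) as log2(TPM + 1), with its trend option and without a block, and p-values were adjusted over all of them by Benjamini-Hochberg. The fit was tested on simulated data. The members and lists were chosen with earlier results of these data known. Genes named were the members, their family relatives, Stk40, T, Gbx2, Pou5f1, Sox2 and Nanog, up to 3 tested genes per list with the smallest unadjusted p, the 3 nearest profiles per member and the nearest tested protein-coding neighbours. Some results under this rule are not reported here. Markers at or near 0 and others outside this rule were picked after their values were seen. Alternatives were pseudocounts of 0.1 and 0.01, filters at a mean above 0 or of at least 5 TPM, rescaling without mitochondrially encoded and ribosomal protein genes, quantile normalization, median centring, no trend, a replicate block and each library left out.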

Additional observations from a re-analysis of the deposited data

How the results depend on the processing

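The fold changes of Otx2, Zic2, Zic5 and Pou3f1 were positive and not past the adjusted threshold in limma with all 13 alternatives run. Their ranges over these were 1.51 to 2.30 for Otx2, 1.05 to 1.51 for Zic2, 0.95 to 1.38 for Zic5 and 0.77 to 0.88 for Pou3f1, with adjusted p from 0.235 (Pou3f1, filter at a mean of at least 5 TPM) to 0.738 (all 4, without Stk40-/- library 1). The ends of the first 3 ranges come from leaving out 1 library, and the lone library of a group is then assumed to vary like the others. The number of genes past the threshold was 0 with every alternative, and the smallest adjusted p over all genes ranged from 0.0694 to 0.319. With the replicate number as a replicate block the log2 fold changes were the same, 1.90 for Otx2 and 1.28 for Zic2, with adjusted p of 0.292 and 0.277, and no call was made. Same-numbered libraries deviated together only weakly over tested genes (r = 0.09), and the numbers were not taken as pairs. That value does not cover single genes. For T the log2 difference of library 2 from library 1 was -0.94 in wild type and -0.71 in Stk40-/- cells, while for Otx2 and Zic5 the signs were opposite. The difference in the log2 ratio of Zic2 to Zic5 was 0.12, and 0.09 with either smaller pseudocount. Counting error cannot be given, since TPM holds no depth.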

Other observations

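Some of the listed genes differed between libraries of one genotype more than between genotypes, which is given here as values without a test, for genes picked after their values were seen. Klf2, a naive pluripotency gene, was at 7.83 and 22.7 TPM in wild-type libraries 1 and 2 and at 2.84 and 19.6 TPM in Stk40-/- libraries 1 and 2. Tbx3, another gene of that list, was at 0.623 and 5.55 TPM and at 0.724 and 2.42 TPM, and the endoderm gene Gata4 at 0.656 and 3.77 TPM and at 1.30 and 3.88 TPM. In these 3 genes library 2 was the higher in both genotypes, as it was for Zic2. Of 83 tested genes on the lists, library 2 was above library 1 in both genotypes for 27 and below it in both for 26, with opposite signs for 29. The fibroblast gene S100a4 was at 16.7 TPM in wild-type library 2 and listed at 0 in the other 3, and Col3a1 measured 1.35 and 6.31 TPM in the wild-type pair and 0.113 and 0.609 TPM in the Stk40-/- pair. Inpp5b, between Pou3f1 and Stk40, was at 39.6 TPM in wild-type library 1 and between 13.5 and 14.4 TPM in the other 3 libraries.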
